A study of Rattus norvegicus with 36 samples.

Results

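iAM-1 cells on day 11 (D11) were set against the same line on day 10 (D10), both sampled after doxycycline had been given back to resting muscle cells, to follow the RNAs of cell cycle re-entry. The members were all libraries that the labels place on these days, 4 of D11 and 4 of D10, which are 8 of the 36 libraries of the series, and every listed gene was examined. iAM-1 is a conditionally immortalised line made from atrial myocytes of newborn Wistar rats, and doxycycline in the medium drives the large T antigen that it carries. Poly(A) RNA was sequenced on 9 days, with D0 to D9 covering differentiation without doxycycline and D10 to D18 dedifferentiation with it. D11 and D10 cells had both received 100 ng/ml doxycycline again, as had D12 and D18 cells. The cells collected at D9 had been kept without it, and the proliferating cells that started the series had received the same dose. All groups share the line, the strain and the transferred constructs, so that no group lacks the T antigen gene. The labels do not say if the libraries of a day come from separate cultures, and the p-values therefore reflect the spread among these libraries alone, which may be technical.

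Cells that have left the cycle keep the genes of DNA replication silent through pocket proteins of the Rb family, which bind E2F transcription factors. Large T antigen binds both the Rb family and p53. E2F released from Rb drives genes of the G1/S transition and of replication, and a later wave, driven through B-Myb and FoxM1, supplies the kinases, motors and kinetochore proteins of mitosis. Heart muscle cells leave the cycle around birth.

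Values are CPM, reads per 1000000 of the authors' effective library size, and a log2 fold change is D11 over D10 on the scale of log2(CPM + 0.5), so that 1 is 2-fold. For genes near 0.5 CPM or below, this scale makes a change look smaller than it is. A row counts as changed, or called, at a Benjamini-Hochberg adjusted p under 0.05 in limma, over 11653 rows (11648 rat genes and 5 construct rows) with at least 1 CPM in at least 4 of the 8 libraries. The 8 libraries held between 29.7 and 45.8 M recovered reads (M stands for 1000000), against 29.7 to 86.2 M over the series. In bulk RNA, fewer cells of a type and less RNA per cell cannot be told apart.

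The libraries within each day were uneven, and 3 of them stood apart. D10 replicate 1 differed from the mean of its 3 companions by at least 2-fold in 451 genes, against 7 to 25 genes for the other D10 libraries. At D11, replicates 2 and 4 were close to each other, with a mean chi-square per gene of 4.78 on reads where sampling noise alone gives about 1. Replicates 1 and 3 differed from them and from each other, with means from 43.6 to 105. Principal component 1 held 66.3% of the variance and separated D11 from D10, and component 2 held 17.4% and set these 3 libraries apart. The counts of genes called in the lists for D11 against D10 are therefore also given without these 3 libraries, a choice made after seeing the data, which leaves 2 D11 and 3 D10 libraries. Dropping libraries because they deviate shrinks the spread by selection. The p-values without them therefore tend to be too small, and small shifts are called.

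A total of 1265 rows rose at D11, which is 10.9% of those tested, and 591 fell, which is 5.07%. The directions were unequal in size. At least 2-fold rises numbered 449 (3.85%), against 23 falls of at least 2-fold (0.197%). Of the rows tested, 101 were below 1 CPM in all D10 libraries and so entered the test through D11 alone, which favours rises. Rows that entered through D10 alone were not counted. The share of called rows that rose was 68.2%, and it came to 80.2% with scaling by the total of the listed rows, 55.3% with median-of-ratios size factors and 48.8% with quantile normalization. These scalings moved the median of all rows from 0.01 to between -0.07 and 0.06. Without the 3 libraries, 2608 rows rose (22.4%) and 2587 fell (22.2%), so that all counts without them stand beside this higher background. The excess of large rises appears in the plot of all rows tested.

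**Figure D1:**
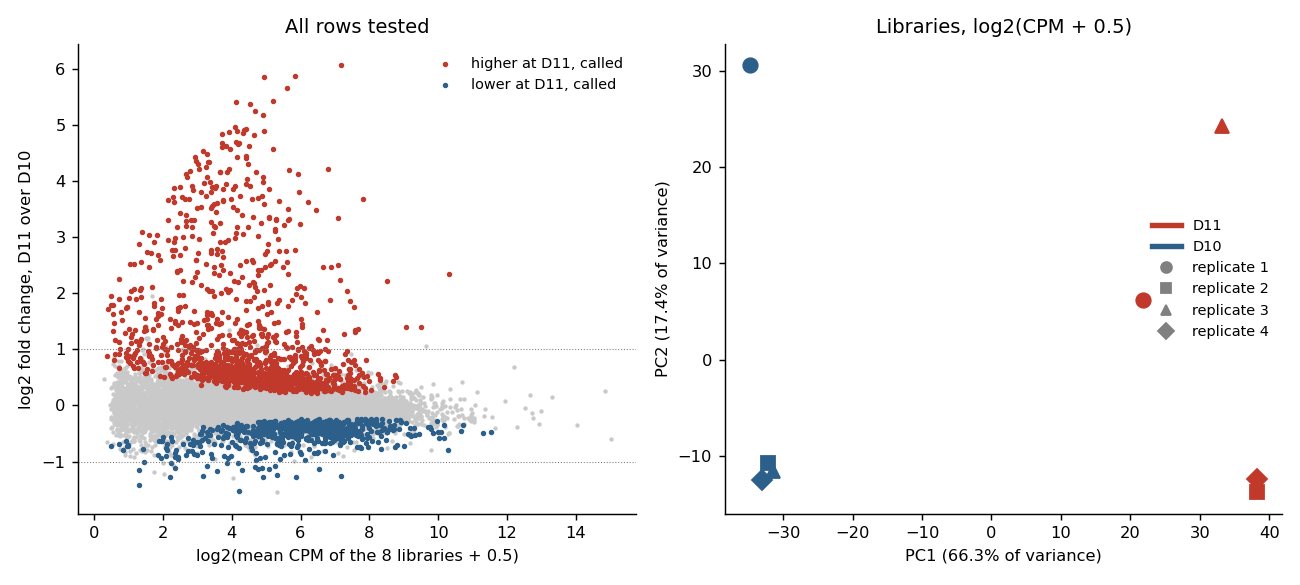
Left, the log2 fold change of D11 over D10 against the log2 mean CPM of the 8 libraries for each row tested, with rises in red, falls in blue, uncalled rows in grey and dotted lines at 2-fold. Right, the 8 libraries on the first 2 principal components of log2(CPM + 0.5). Rises reach 6.06 on the log2 scale while falls end near -1.5, and component 1 (66.3%) separates the days.

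The construct RNAs were measured first, since they check the labels. T antigen RNA had 1705, 2361, 2035 and 2420 CPM in the 4 D11 libraries, against 490, 409, 433 and 337 CPM at D10. All D11 libraries lay above all D10 libraries, and replicates 2 and 4 were the highest of D11. T antigen RNA rose by log2 2.35 (SE 0.14, adjusted p = 3.3e-06). TetR-KRAB, the doxycycline-sensitive repressor of the construct, had 520, 638, 590 and 646 CPM at D11, against 148, 128, 124 and 116 CPM at D10, without overlap. Its rise was log2 2.21 (SE 0.10, adjusted p = 1.6e-06). The other construct rows, the EMCV IRES, the WHV element and the HIV-1 LTR, rose by log2 2.04 to 2.09. On the days around them, T antigen RNA averaged 32.0 CPM at D9 and 2465 CPM at D12. Its D11 rise was smaller than the change over the day before (log2 difference of the steps -1.32, adjusted p = 0.0016, limma), and the following step was smaller again (-2.20, adjusted p = 0.014).

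The switch from G1 to S phase was the earliest stage of the cycle examined, and 20 of its 29 tested genes rose while 1 fell, with a median log2 of 0.81 against 0.01 over all rows. Rises made up 10.9% of all rows tested. Of the 29 genes, 3 were below 1 CPM in all D10 libraries and so entered the test through D11 alone. Of the other 26, 17 rose. E2f1, the activating E2F of S phase entry, had 61.9, 155, 84.7 and 155 CPM at D11, against 7.45, 12.5, 11.7 and 12.8 CPM at D10. The D11 libraries were all above the D10 libraries, with replicates 1 and 3 the lower ones of D11. It rose by log2 3.23 (SE 0.30, adjusted p = 3.6e-05). Ccne1, the cyclin that activates Cdk2 at this transition, had 13.8, 36.8, 15.4 and 39.2 CPM at D11, against 1.59, 1.15, 0.794 and 0.867 CPM at D10. It rose by log2 3.94 (SE 0.34, adjusted p = 2.6e-05), and the related cyclin Ccne2 rose by log2 3.30. For both cyclins the lowest D11 library was above the highest of D10.

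Largest within this group were Mybl2 (log2 4.86), which encodes B-Myb, and the repressive E2Fs E2f8 (4.61) and E2f7 (4.42), which curb E2F1 activity as S phase proceeds. E2f7 had 5.89, 23.4, 8.95 and 18.6 CPM at D11, against 0.0279, 0.0886, 0.217 and 0.0897 CPM at D10, so that the D10 values rest on a handful of reads. Cyclin D and its kinase moved less, with Ccnd1 at log2 0.57 (SE 0.14) and Cdk4 at 0.30. Rbl1, the pocket protein p107, rose by 2.40 (SE 0.17), and Rbl2, the pocket protein p130 of resting cells, fell by 0.40 (SE 0.11, adjusted p = 0.034). Ccnd1 came to 0.28 and Rbl2 to -0.25 without the 3 libraries. Rb1 itself was not called (log2 -0.01, adjusted p = 0.98), nor were E2f4, E2f6, Lin37, Lin52, Tfdp2, Cdk6 and Myc. Without the 3 libraries, 24 genes of the group rose and 1 fell.

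Promoters are shown for the G1/S genes with the largest rises that hold an E2F letter match in the RefSeq window (GRCr8). The window runs from 250 bases before to 50 after the annotated start. Genes whose symbol has several promoter entries were not searched. The capitals mark an E2F match, searched on both strands as TTTGGCGC, TTTCGCGC, TTTCCCGC or TTTGCCGC. Rbl1 is at chr3:166289327-166289626, minus strand, E2f3 at chr17:34810166-34810465, plus strand, and Cdc25a at chr8:118742798-118743097, plus strand.
Rbl1: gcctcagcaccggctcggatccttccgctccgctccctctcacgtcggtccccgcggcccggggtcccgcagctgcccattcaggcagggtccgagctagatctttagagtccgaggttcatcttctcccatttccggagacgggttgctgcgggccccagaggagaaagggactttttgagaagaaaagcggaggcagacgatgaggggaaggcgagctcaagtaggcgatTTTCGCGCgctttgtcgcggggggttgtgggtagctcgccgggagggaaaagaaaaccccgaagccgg
E2f3: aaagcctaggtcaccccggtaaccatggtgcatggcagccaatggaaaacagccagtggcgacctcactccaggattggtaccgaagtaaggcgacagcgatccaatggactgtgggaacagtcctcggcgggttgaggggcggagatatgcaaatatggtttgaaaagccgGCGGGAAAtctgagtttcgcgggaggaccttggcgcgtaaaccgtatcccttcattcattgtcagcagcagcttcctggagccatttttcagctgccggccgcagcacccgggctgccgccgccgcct
Cdc25a: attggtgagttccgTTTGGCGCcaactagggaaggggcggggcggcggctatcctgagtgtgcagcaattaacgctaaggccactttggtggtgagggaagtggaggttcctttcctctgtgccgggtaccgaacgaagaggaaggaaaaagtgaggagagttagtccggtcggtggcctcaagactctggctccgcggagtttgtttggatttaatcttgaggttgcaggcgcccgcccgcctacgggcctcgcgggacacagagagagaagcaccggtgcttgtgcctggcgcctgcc
E2f3, an activating E2F, rose by log2 0.81 (SE 0.18) and Cdc25a, the phosphatase that activates Cdk2, by 0.62 (SE 0.09). Such a match stood in 5 of the 20 G1/S genes with a single promoter entry (25%). It stood in 2.14% of all 33469 promoters, which keep every entry, and in 4.37% of the single entries of the genes tested. A letter match is a description of the sequence and not a measured binding site.

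Genes that license replication origins rose in 17 of 19 cases, with a median log2 near 2.5. Through D11 alone 1 of them, Orc1, entered the test, and 16 of the other 18 rose. Cdc6, which loads the MCM helicase onto origins, had 35.8, 71.9, 47.4 and 76.4 CPM at D11, against 0.753, 1.03, 1.32 and 1.17 CPM at D10. It was far above its D10 level in every D11 library and was among the 10 largest rises of all genes, with log2 5.17 (SE 0.24, adjusted p = 1.6e-06). Mcm5, a helicase subunit, had 141, 266, 172 and 267 CPM at D11, against 6.00, 13.9, 14.0 and 10.6 CPM at D10, a rise of log2 4.20 (SE 0.28, adjusted p = 4.9e-06). D10 replicate 1 had the lowest Mcm5 of its day. Orc1, the origin recognition subunit that binds in G1, rose by log2 4.22, and Mcm10, which helps to start the fork, by 3.98. Mcm2 rose by 2.24 (SE 0.15) and Cdt1, the loading partner of Cdc6, by 3.21 (SE 0.13). The licensing inhibitor geminin, Gmnn, rose with them (3.17, SE 0.26). Orc3 and Orc4 were the members not called, with log2 0.05 and 0.03. The count was also 17 without the 3 libraries.

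Of the lists searched, this one had the highest share of E2F matches, in 10 of 15 genes with a single promoter entry (66.7%). The promoters of Mcm5 (chr19:13488563-13488862, plus strand) and Mcm3 (chr9:30733697-30733996, minus strand) are shown. These genes had the largest rises of the list among those with a single entry that hold a match, and were chosen after the shares had been seen. Each holds several matches. In Mcm5, 2 of the 3 matches overlap within the first run of capitals.
Mcm5: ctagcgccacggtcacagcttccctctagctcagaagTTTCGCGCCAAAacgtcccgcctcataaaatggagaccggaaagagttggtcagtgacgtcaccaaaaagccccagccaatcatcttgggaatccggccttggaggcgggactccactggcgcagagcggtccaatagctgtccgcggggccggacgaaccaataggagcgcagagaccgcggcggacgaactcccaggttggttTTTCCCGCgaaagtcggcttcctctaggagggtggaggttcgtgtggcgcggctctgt
Mcm3: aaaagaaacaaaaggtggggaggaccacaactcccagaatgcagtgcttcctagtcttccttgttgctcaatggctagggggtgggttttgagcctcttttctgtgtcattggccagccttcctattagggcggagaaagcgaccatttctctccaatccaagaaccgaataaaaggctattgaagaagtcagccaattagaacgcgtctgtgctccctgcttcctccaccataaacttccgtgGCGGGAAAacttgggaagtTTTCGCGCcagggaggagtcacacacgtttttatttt
Mcm3, also a helicase subunit, had 104, 213, 111 and 210 CPM at D11, against 8.28, 16.3, 16.2 and 13.5 CPM at D10, a rise of log2 3.47 (SE 0.28).

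At the replication fork, 33 of 35 genes rose and 1 fell, with a median log2 of 1.88. Cdc45, which completes the active helicase, had 26.1, 46.9, 36.7 and 48.3 CPM at D11, against 1.42, 1.56, 3.10 and 2.30 CPM at D10 (log2 3.95, SE 0.24, adjusted p = 3.3e-06). Ticrr, which recruits Cdc45, rose by 3.91, and the subunits Pole and Pole2 of the leading strand polymerase by 3.80 and 3.79. Pcna, the sliding clamp, had 168, 358, 221 and 359 CPM at D11, against 67.0, 72.4, 75.0 and 74.2 CPM at D10, and rose by 1.86 (SE 0.22, adjusted p = 0.00024). Pold4, the small subunit of polymerase delta, was the gene that fell, with log2 -0.57 (SE 0.14, adjusted p = 0.024). Rnaseh2a was not called. Matches to E2F stood in 11 of 31 promoters of this group (35.5%).

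Enzymes that supply nucleotides rose in 15 of 20 cases, with a median log2 of 0.70. Through D11 alone 2 of them, Rrm2 and Dctd, entered the test, and 13 of the other 18 rose. Rrm2, the subunit of ribonucleotide reductase made in S phase, had 23.8, 51.4, 33.5 and 55.1 CPM at D11, against 0.976, 0.915, 0.554 and 0.748 CPM at D10 (log2 4.93, SE 0.25, adjusted p = 1.7e-06). The Rrm2-like gene LOC100359539, named Rrm2l1 in RefSeq, rose by 5.87 (SE 0.29), but reads may be split between it and Rrm2 and both values are uncertain for that reason. Tk1, thymidine kinase, rose by 3.33 and Dctd, dCMP deaminase, by 2.55. The members not called were Adsl, Atic, Impdh1, Impdh2 and Paics, which make purines.

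In chromatin assembly behind the fork, 15 of 16 genes rose, with a median log2 of 1.72. Through D11 alone 1 of them entered the test, and 14 of the other 15 rose. Uhrf1, which guides maintenance methylation, had 51.2, 129, 73.2 and 130 CPM at D11, against 1.31, 0.974, 1.18 and 1.70 CPM at D10. No library of the days overlapped, and the rise was log2 5.66 (SE 0.28, adjusted p = 1.6e-06). The histone chaperones Asf1b, Chaf1b and Chaf1a rose by 3.86, 3.07 and 2.77, and Dnmt1, the maintenance methyltransferase, by 1.34 (SE 0.17). Asf1a, the sister of Asf1b, was not called (0.12, adjusted p = 0.56). Fam111a, a protease linked to replication that stands in none of the lists, was the third largest rise of all named genes. It had 28.7, 82.7, 41.0 and 87.1 CPM at D11, against 0.418, 0.443, 0.554 and 0.389 CPM at D10 (log2 5.84, SE 0.32, adjusted p = 2.0e-06). Fam111a thus also entered the test through D11 alone.

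DNA repair and checkpoint genes rose in 29 of 30 cases, with a median log2 of 2.11. Through D11 alone 4 of them entered the test, and 25 of the other 26 rose. Exo1, an exonuclease of mismatch repair and resection, had 8.43, 17.0, 12.1 and 15.0 CPM at D11, against 0.251, 0.620, 0.554 and 0.329 CPM at D10 (log2 3.84, SE 0.23, adjusted p = 3.2e-06). Polq, the end-joining polymerase, rose by 3.79 and Fanci, of the Fanconi pathway, by 3.72. Brca1 rose by 3.33 (SE 0.24) and Brca2 by 2.18 (SE 0.23). Nbn was not called (0.16, adjusted p = 0.15).

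The kinases and cyclins of G2 and M phase rose in 21 of 22 cases, with a median log2 of 3.65. Through D11 alone 5 of them entered the test, and 16 of the other 17 rose. Cdk1, the kinase that drives mitosis, had 31.5, 80.8, 47.7 and 75.1 CPM at D11, against 1.26, 1.45, 1.28 and 1.59 CPM at D10. The D10 libraries lay close together, whereas D11 replicate 1 was well below replicates 2 and 4. Cdk1 rose by log2 4.88 (SE 0.26, adjusted p = 1.9e-06). Ccna2, the cyclin of S phase and G2, had 19.9, 62.0, 35.7 and 60.7 CPM at D11, against 0.530, 0.384, 0.457 and 0.628 CPM at D10 (log2 5.36, SE 0.32, adjusted p = 3.0e-06). Ccnb1, the mitotic cyclin, had 16.1, 34.2, 29.4 and 36.0 CPM at D11, against 1.37, 1.68, 2.00 and 1.82 CPM at D10 (log2 3.67, SE 0.24, adjusted p = 3.6e-06).

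Pbk, a mitotic kinase, rose by log2 5.40 and Ttk, the spindle checkpoint kinase Mps1, by 4.87. Aurkb, of the chromosomal passenger complex, rose by 4.69, and Plk1 by 3.63 (SE 0.26). Foxm1, the transcription factor of the late wave, had 21.6, 56.7, 30.0 and 50.9 CPM at D11, against 3.32, 3.81, 3.59 and 3.86 CPM at D10, and rose by 3.18 (SE 0.27). Cdc25b was the member not called (0.75, adjusted p = 0.14), with 27.1, 33.9, 44.3 and 35.2 CPM at D11, against 44.6 CPM in D10 replicate 1 and 14.5 to 16.5 CPM in the other D10 libraries. All 22 genes rose without the 3 libraries.

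Among G2/M genes with a single promoter entry, those with the largest rises that hold both a CHR match (TTTGAA) and a CCAAT match are shown. These are the letters of the elements through which the late wave is known to be controlled. Capitals mark these matches on either strand. Cdk1 is at chr20:19265043-19265342, plus strand, Ttk at chr8:93634389-93634688, plus strand, and Ccnf at chr10:13783620-13783919, minus strand.
Cdk1: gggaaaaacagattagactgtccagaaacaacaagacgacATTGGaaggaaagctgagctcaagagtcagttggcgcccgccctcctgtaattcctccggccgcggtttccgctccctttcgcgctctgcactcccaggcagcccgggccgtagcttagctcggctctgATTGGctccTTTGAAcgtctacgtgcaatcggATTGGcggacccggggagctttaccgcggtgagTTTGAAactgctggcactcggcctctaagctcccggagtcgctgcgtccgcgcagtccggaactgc
Ttk: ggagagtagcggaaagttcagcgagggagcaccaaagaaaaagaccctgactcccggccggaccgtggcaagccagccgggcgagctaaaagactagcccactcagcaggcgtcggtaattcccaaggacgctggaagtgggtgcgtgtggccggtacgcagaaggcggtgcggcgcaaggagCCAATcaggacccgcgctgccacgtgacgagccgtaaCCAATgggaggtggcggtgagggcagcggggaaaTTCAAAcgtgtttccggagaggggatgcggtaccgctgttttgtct
Ccnf: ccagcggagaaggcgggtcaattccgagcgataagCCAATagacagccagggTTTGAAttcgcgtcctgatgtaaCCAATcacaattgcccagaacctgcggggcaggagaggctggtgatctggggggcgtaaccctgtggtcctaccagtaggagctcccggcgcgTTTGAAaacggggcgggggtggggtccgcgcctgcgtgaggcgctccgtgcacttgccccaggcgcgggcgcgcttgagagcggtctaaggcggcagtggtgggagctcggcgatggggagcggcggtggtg
Ccnf, cyclin F, rose by log2 4.21 (SE 0.31). A CHR match stood in 9 of 15 promoters of this group (60.0%) and both matches in 6 (40.0%), against 18.3% and 7.41% of all promoters in the table. Of the 449 rows that rose at least 2-fold, 318 had a single promoter entry and were searched. Of these, 101 held a CHR match (31.8%), 177 a CCAAT match (55.7%) and 51 an E2F match (16.0%). Among all 33469 promoters the shares for CCAAT and E2F were 37.5% and 2.14%. The genes tested, 7946 with a single promoter entry, held CHR, CCAAT and E2F matches in 11.6%, 38.4% and 4.37%. CHR matches were not limited to late lists, with 8 of 20 promoters of the G1/S genes (40.0%), 11 of 26 of the kinetochore genes (42.3%) and 12 of 20 of the genes of mitotic exit (60.0%), against 3 of 15 in origin licensing (20.0%) and 2 of 31 at the fork (6.45%). Sarcomere genes held an E2F match in 0 of 20 promoters and a CHR match in 3 (15.0%).

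Kinetochore and spindle checkpoint genes rose in 31 of 32 cases, with a median log2 of 3.45. Of the 32, 8 were below 1 CPM in all D10 libraries and entered the test through D11 alone. Of the other 24, 23 rose. Cenpf, an outer kinetochore protein, had 42.3, 107, 49.5 and 89.2 CPM at D11, against 1.03, 1.21, 1.03 and 1.05 CPM at D10 (log2 5.42, SE 0.27, adjusted p = 1.6e-06). Sgo2, which protects cohesin at the centromere, rose by 4.68, Ndc80, which grips microtubules, by 4.40 and Cenpt, its anchor on chromatin, by 4.34. Mis12 was not called (0.37, adjusted p = 0.071).

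Spindle, condensin and cohesin genes rose in 37 of 40 cases, with a median log2 of 3.27. Through D11 alone 4 of them entered the test, and 33 of the other 36 rose. Top2a, the topoisomerase that untangles chromosomes, was the largest rise of all genes. It had 131, 393, 220 and 397 CPM at D11, against 3.43, 3.34, 3.92 and 2.96 CPM at D10. The days were far apart, and D11 replicates 2 and 4 were about equal while replicate 1 was the lowest. The rise was log2 6.06 (SE 0.31, adjusted p = 1.7e-06), and 6.67 without the 3 libraries. Kif20a, a kinesin of the midzone, rose by 5.25, Ncapg, of condensin I, by 4.90 and Kif4a, a chromokinesin, by 4.66. The members not called were Numa1, Smc1a and Stag2, with log2 between -0.13 and 0.21.

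Genes of mitotic exit and cytokinesis rose in 22 of 23 cases, with a median log2 of 3.67. Through D11 alone 5 of them entered the test, and 17 of the other 18 rose. Cdca3, which takes part in mitotic entry and protein turnover, rose by 4.96. Ect2, the exchange factor that starts the cleavage furrow, had 25.5, 62.8, 43.5 and 59.8 CPM at D11, against 1.42, 1.09, 0.890 and 1.11 CPM at D10 (log2 4.82, SE 0.26, adjusted p = 1.9e-06). Citron kinase, Cit, rose by 4.61. Fzr1, the APC/C activator Cdh1, which keeps G1 cells from re-entry, was not called (0.12, adjusted p = 0.43). Mki67, the marker of cycling cells, had 222, 567, 320 and 560 CPM at D11, against 25.6, 32.2, 32.0 and 30.4 CPM at D10 (log2 3.67, SE 0.27, adjusted p = 8.0e-06).

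**Figure D2:**
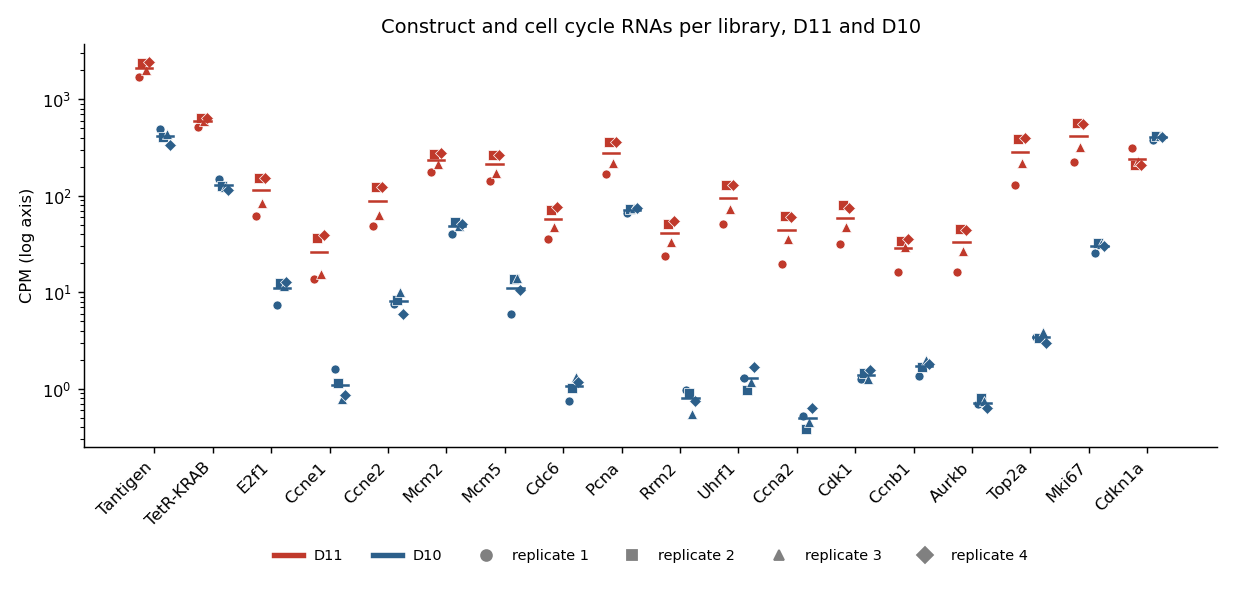
CPM on a log axis for construct and cell cycle RNAs in each library, D11 in red left of D10 in blue, with the marker shape giving the replicate and a line the mean of 4. Every gene but Cdkn1a lies higher in all D11 libraries, and replicate 1 is the lowest D11 library for most, as for Top2a with 131 against 220 to 397 CPM.

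Over the 10 cell cycle lists, which hold 267 listed genes and 265 tested ones, 239 rose, 2 fell and 24 were not called, beside the background of 10.9% and 5.07%. The 24 lay between log2 -0.13 and 0.76. Of the 265 genes, 33 were below 1 CPM in all D10 libraries and so entered the test through D11 alone. Of the remaining 232, 206 rose. Without the 3 libraries, 34 of 35 fork genes rose and 1 fell, and rises were called in 16 of 20 genes of nucleotide supply, 16 of 16 of chromatin assembly, 29 of 30 of repair, 32 of 32 of the kinetochore and 22 of 23 of mitotic exit. Of the spindle, condensin and cohesin genes 39 rose and 1 fell. Testing all listed rows without a minimum moved no list's count by more than 1. At least 2-fold rises numbered 204, which is 77.0% of the tested cell cycle genes and 45.4% of the 449 rows that rose at least 2-fold. Of the 239 genes that rose, 236 had all D11 libraries above all D10 libraries, which being called higher itself favours. D11 replicates 2 and 4 both stood above replicates 1 and 3 in 221 of them, and replicate 1 was the lowest of D11 in 218. T antigen RNA had the same order of the D11 libraries, and whether the 2 go together was not tested. The shares of all rows with this separation or these orders were not counted. Across the G2/M kinases and cyclins, the summed level ran from 475 to 996 CPM at D11, against 113 to 146 CPM at D10.

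**Figure D3:**
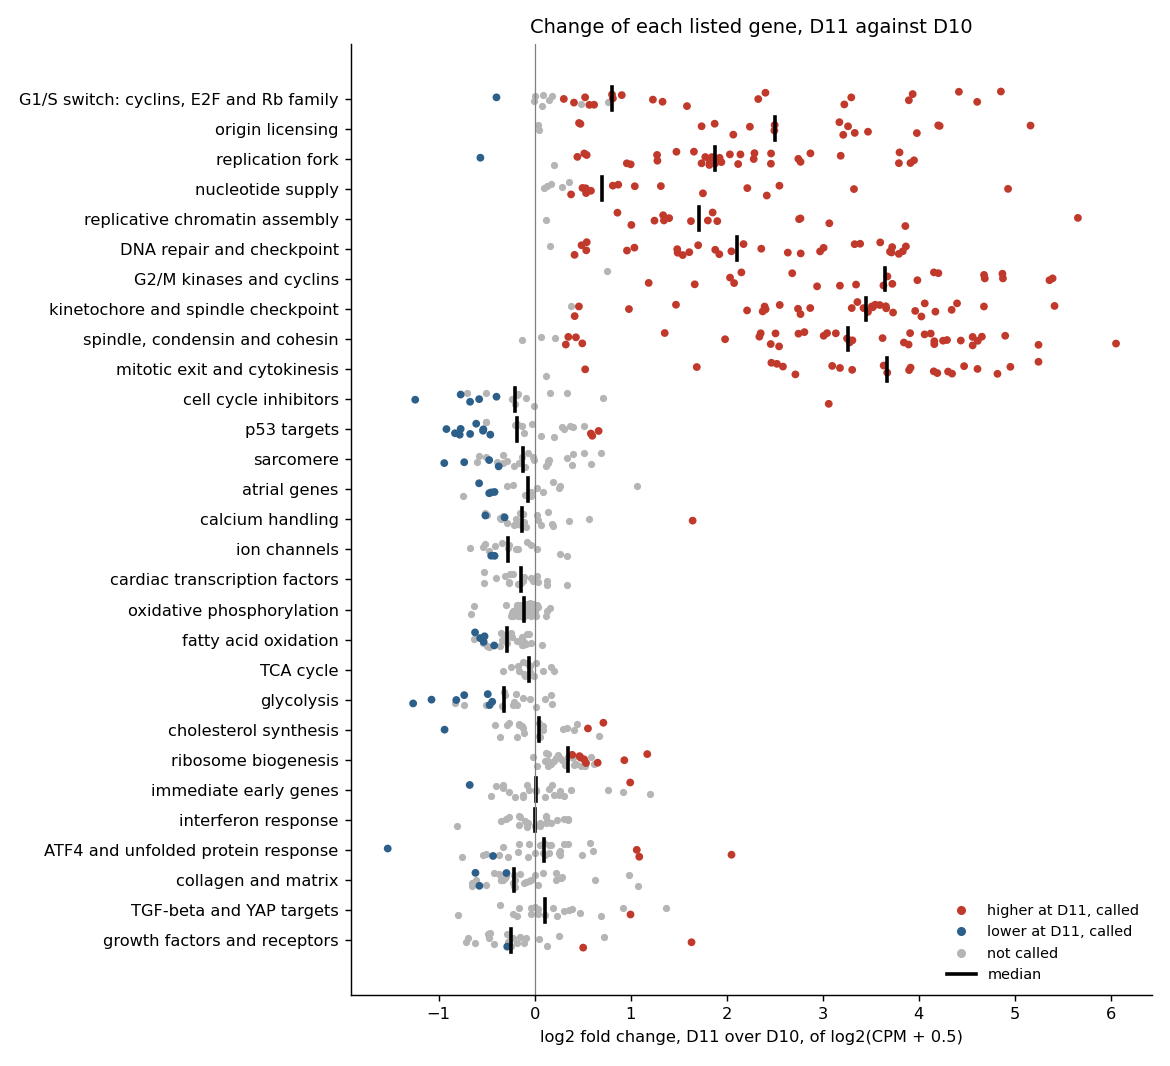
Log2 fold change of D11 over D10 for each tested gene of the lists, with rises in red, falls in blue, uncalled genes in grey and the median as a black bar. The 10 cell cycle lists have medians from 0.70 to 3.67, and the lists below them lie within about 0.35 of 0.

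The D11 step was compared with the step before it, in a contrast over the 12 libraries of D9, D10 and D11. The change was higher in the D11 step for 648 of 11770 rows (5.51%) and lower for 278 (2.36%). The steps share the D10 libraries. Cell cycle genes were higher in 14 of 29 of the G1/S list, 14 of 19 in origin licensing, 30 of 35 at the fork, 21 of 22 among G2/M kinases, 28 of 32 at the kinetochore and 22 of 23 in mitotic exit, and these lists had no member that was lower. The highest contrasts were LOC100359539 (5.74), Fam111a (5.67), Ccna2 (5.35), Pbk (5.30) and Aurkb (5.17). Aurkb averaged 1.25 CPM at D9, 0.717 CPM at D10 and 33.5 CPM at D11. Origin licensing had moved most over the earlier step, with a median log2 change of 0.49 between D9 and D10, against 0.10 to 0.38 in the other lists named here. Mcm5 averaged 0.974 CPM at D9 and already 11.1 CPM at D10, and its D11 step did not differ from the earlier step by the test (contrast 1.28, adjusted p = 0.10).

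The step that followed was tested over the libraries of D10, D11 and D12. The change was lower in the D12 step for 163 of 11877 rows (1.37%) and higher for 4 (0.0337%). The D11 libraries enter both steps with opposite sign. The lowest contrasts were Uhrf1 (-4.50), Cdc6 (-4.33), Fam111a (-4.29), LOC100359539 (-4.12) and Top2a (-4.11). Lower contrasts were called in 13 of 19 licensing genes, 17 of 35 fork genes, 10 of 22 G2/M genes and 14 of 23 genes of mitotic exit. The 4 higher rows were Inha, the inhibin alpha subunit, Col5a3, a collagen chain, Hr, a corepressor, and Pfkfb3, with contrasts of up to 2.32. The D12 libraries were also the most spread of the 9 days, with a median SD per gene of 0.245 on the log2 scale, against 0.169 at D11. Without D11 replicate 2 only 71 rows were lower, and without replicate 4 only 75.

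Lists of the late cycle were further from their level in proliferating cells at D11 than lists of the early cycle. The median log2 difference of D11 from D0 was -0.39 for G1/S genes, -0.51 for licensing and -0.60 for the fork, and -1.66 for G2/M kinases, -1.55 for the kinetochore and -1.93 for mitotic exit. Between D11 and D12 these lists moved by 0.57, 0.62, 0.62, 1.74, 1.68 and 1.85 in the same order. These medians were not tested. Top2a averaged 878 CPM at D0, 3.41 CPM at D10, 285 CPM at D11 and 1008 CPM at D12, while E2f1 averaged 82.8 CPM at D0, 11.1 CPM at D10, 114 CPM at D11 and 152 CPM at D12.

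**Figure D4:**
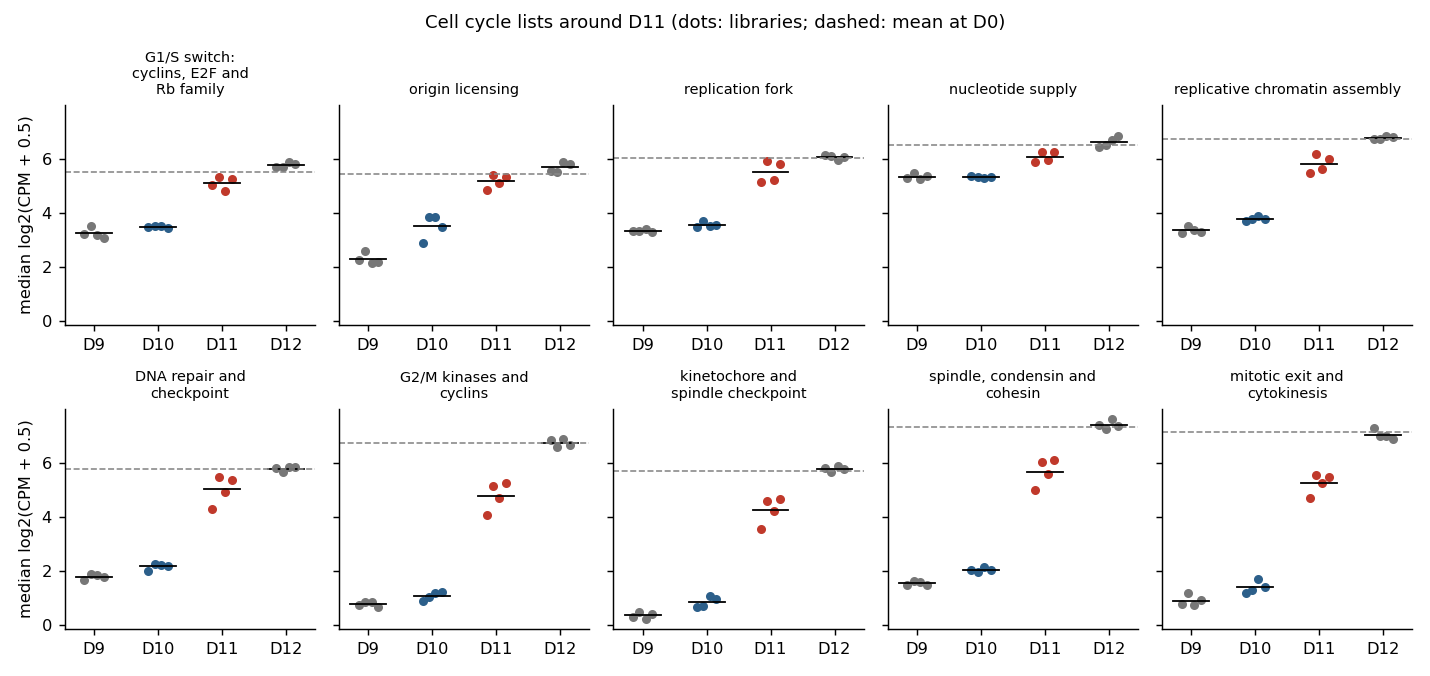
Median log2(CPM + 0.5) of each cell cycle list in every library of D9, D10, D11 and D12, with black bars for the mean of a day and a dashed line for the mean at D0. All lists step up between D10 and D11, and the lists of G2, mitosis and its exit stay farther below the dashed line at D11 than the G1/S and licensing lists.

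Inhibitors of the cycle mostly stayed uncalled, with 1 of 17 higher, 5 lower and 11 not called (median log2 -0.20). The shares were 5.88% higher and 29.4% lower, beside 10.9% and 5.07% of all rows. Cdkn1a, the p53 target p21 that inhibits cyclin-dependent kinases, had 314, 210.0, 231 and 209 CPM at D11, against 377, 418, 421 and 409 CPM at D10. The days did not overlap, and D11 replicate 1 was the highest of its day. Cdkn1a fell by log2 0.77 (SE 0.13, adjusted p = 0.0022). Ccng2, the cyclin G2 of resting cells, fell by 1.25 (SE 0.26, adjusted p = 0.0086), and Tob1 and Gadd45a, both growth-restraining, fell by 0.67 and 0.58. The rising member, Cdkn3, is a phosphatase of Cdk2 that is itself made in dividing cells (log2 3.06, SE 0.32). Cdkn1b, p27, was not called (log2 -0.19, adjusted p = 0.19). The list had 3 rises and 9 falls without the 3 libraries, beside 22.4% and 22.2% of all rows. Ccng2 then came to -0.77 and Gadd45a to -0.25.

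Among p53 targets, 9 of 27 fell, 3 rose and 15 were not called, with a median log2 of -0.18. The falls were 33.3% of the list, beside 5.07% of all rows, and the rises 11.1%, beside 10.9%. Eda2r, a death receptor, had 25.7, 21.5, 16.3 and 21.6 CPM at D11, against 34.8, 40.1, 46.6 and 40.1 CPM at D10 (log2 -0.92, SE 0.14, adjusted p = 0.0015). Mdm2, the ligase that degrades p53, fell by 0.61 (SE 0.09), Bax, a pore-forming death factor, by 0.46 (SE 0.08), and Sesn1, a sestrin, by 0.67 (SE 0.19). The members that rose were Ddb2, a sensor of ultraviolet damage (0.67), Fdxr, a mitochondrial reductase (0.60), and Gtse1, which is also known as a G2/M gene (0.59). Rises numbered 6 and falls 13 without the 3 libraries, beside 22.4% and 22.2% of all rows, and Sesn1 came to -0.34.

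RNAs of the contracting cell changed less than those of the cycle, and with all 8 libraries most were not called. Of 28 sarcomere genes, 4 fell and 24 were not called, with a median log2 of -0.12 that lay at 0.01 with scaling by the total of the listed rows. The falls were 14.3% of the list, beside 5.07% of all rows. Myh6, the alpha myosin heavy chain, had 24408, 24423, 28973 and 25005 CPM at D11, against 60795, 33918, 31532 and 34810 CPM at D10. Its D11 libraries all lay below those of D10, but D10 replicate 1 alone was far above its companions, and Myh6 was not called (log2 -0.60, SE 0.28, adjusted p = 0.18). The value was -0.43 without the 3 libraries. Myl7, the atrial regulatory light chain, had 2181, 2657, 2247 and 2762 CPM at D11, against 4054, 3254, 3020 and 3363 CPM at D10, and fell by 0.47 (SE 0.14, adjusted p = 0.041), or by 0.24 without the 3 libraries. Tcap, a titin cap protein, fell by 0.94 (SE 0.23) and Unc45b, a myosin chaperone, by 0.73 (SE 0.10). Actn2, the Z-disc actinin, split by library, with 1480, 889, 1498 and 919 CPM at D11, against 1136, 1184, 1136 and 1218 CPM at D10 (log2 -0.01, SE 0.18, adjusted p = 0.98).

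Of 16 atrial genes, 4 fell (25%, beside 5.07% of all rows) and 12 were not called, with a median log2 of -0.07. The count was 11 falls and 1 rise without the 3 libraries, with a median of -0.22, where 22.2% of all rows fell and 22.4% rose. Dkk3, a secreted protein of atrial muscle, had 764, 946, 684 and 979 CPM at D11, against 1351, 1203, 1227 and 1210 CPM at D10 (log2 -0.58, SE 0.12, adjusted p = 0.011). Kcnj3 and Kcnj5, the subunits of the acetylcholine-gated potassium channel, fell by 0.45 and 0.42, and were the 2 falls among 17 ion channel genes, where 15 were not called. Dkk3 came to -0.33 and Kcnj3 to -0.27 without the 3 libraries, where 3 ion channel genes rose and 6 fell, with a median of -0.04, against -0.28 with all libraries. Nppa, the atrial natriuretic peptide, had 37739, 22497, 47210.0 and 23002 CPM at D11, against 34521, 23899, 22629 and 24201 CPM at D10. The high values were D11 replicates 1 and 3 and D10 replicate 1, and the difference was not called (log2 0.26, SE 0.31, adjusted p = 0.64).

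In calcium handling, 1 of 27 genes rose (3.70%) and 2 fell (7.41%), beside 10.9% and 5.07% of all rows. Camk2b, a calmodulin kinase subunit, rose by log2 1.65 (SE 0.35, adjusted p = 0.011) and Asph, which encodes junctin among other products, fell by 0.51 (SE 0.08). Ryr2, the calcium release channel, and Atp2a2, the calcium pump, were not called (log2 -0.33 and -0.35, adjusted p = 0.11 and 0.25). None of 21 cardiac transcription factors was called in limma, with log2 between -0.53 and 0.33; 5 had an unadjusted p under 0.05, edgeR called 2 and DESeq2 called 3. Mb, myoglobin, had 7.54, 15.0, 9.95 and 17.5 CPM at D11, against 206, 23.2, 19.0 and 17.5 CPM at D10. It was not called (log2 -1.55, SE 0.69, adjusted p = 0.16), and the value was -0.28 without the 3 libraries. Without them, 6 genes of calcium handling rose and 9 fell, 6 sarcomere genes rose and 14 fell, and 12 transcription factors fell and 1 rose. Of all rows, 22.4% then rose and 22.2% fell.

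With all 8 libraries, energy metabolism was mostly uncalled as well. None of 51 oxidative phosphorylation genes was called in limma (median -0.11), with 3 at an unadjusted p under 0.05, 0 called by edgeR and 4 by DESeq2. None of 17 TCA cycle genes was called by limma, edgeR or DESeq2, and 0 had an unadjusted p under 0.05 (median -0.06, or 0.01 under scaling by the total of the listed rows). Fatty acid oxidation had 5 falls among 28 genes and 23 not called, led by Hadh, a dehydrogenase of the beta-oxidation spiral (log2 -0.62, SE 0.15, adjusted p = 0.021). Glycolysis had 7 falls among 23 genes and 16 not called, with a median of -0.32, beside 5.07% of all rows that fell. Pfkfb3, which makes the activator of phosphofructokinase, had 42.2, 32.5, 28.7 and 31.7 CPM at D11, against 54.9, 90.6, 95.2 and 91.4 CPM at D10. It fell by 1.27 (SE 0.18, adjusted p = 0.00096), and D10 replicate 1 was the lowest of its day. Aldoc, an aldolase, fell by 1.08 (SE 0.25), Slc2a1, the glucose carrier GLUT1, by 0.82 (SE 0.14) and Pfkl, a phosphofructokinase, by 0.73 (SE 0.11). More genes of the energy lists were called without the 3 libraries, where 22.4% of all rows rose and 22.2% fell. Oxidative phosphorylation then had 8 rises and 12 falls among 51 genes (median -0.01) and the TCA cycle 5 rises and 1 fall among 17 (median 0.05). Fatty acid oxidation had 3 rises and 13 falls, with a median of -0.12, against -0.29 with all libraries, and glycolysis 4 rises and 11 falls, with a median of -0.14. Hadh came to -0.28 and Aldoc to -0.52. The summed CPM of the glycolysis list was 9329.8 to 10775 at D11, against 15416 in D10 replicate 1 and 11514 to 11932 in the other D10 libraries. In the step contrast, 6 of 23 glycolysis genes were lower in the D11 step than in the step before and 1 was higher. Of all rows in that contrast, 2.36% were lower and 5.51% higher.

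The largest falls of all genes were small beside the rises. Ddit4, an inhibitor of mTORC1, had 6.96, 11.8, 4.65 and 15.1 CPM at D11, against 23.3, 25.9, 27.1 and 29.2 CPM at D10 (log2 -1.53, SE 0.29, adjusted p = 0.0059). Egln3, a prolyl hydroxylase that acts on HIF, had 72.2, 77.2, 81.8 and 84.6 CPM at D11, against 381, 147, 156 and 147 CPM at D10 (log2 -1.26, SE 0.27, adjusted p = 0.011). Its D10 mean rests in part on replicate 1, and the value was -0.89 without the 3 libraries. The others were Asb10 (-1.41), Ankrd37 (-1.28), Sema7a, a semaphorin (-1.27), Pfkfb3, Klhl33 (-1.26), Ccng2, Gnb3, a G protein subunit (-1.17), and Efnb3, an ephrin (-1.15). D11 replicates 1 and 3 were the lowest of their day for each of these falls except Pfkfb3 and Egln3. Of these falls 6 were over 1.5 times smaller without the 3 libraries, with Ddit4 at -1.01, Asb10 at -0.91, Ccng2 at -0.77, Sema7a at -0.62, Gnb3 at -0.55 and Efnb3 at -0.43. Efnb3 had 40.6 CPM in D10 replicate 1, against 18.5 to 23.9 CPM in the other D10 libraries. Inha, Ankrd37, Pfkfb3 and Egln3 also had the lowest step contrasts, with Kbtbd11 (-2.51, -2.38, -2.08, -2.17 and -2.19), and each averaged higher at D10 than at D9.

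Growth-related lists moved less than the cell cycle. Ribosome biogenesis had 8 rises among 31 genes and 23 not called, with a median log2 of 0.35, beside 10.9% of all rows that rose. The median level of the list on the log2 scale was 5.43 and 5.73 in D11 replicates 1 and 3, and 5.16 and 5.13 in replicates 2 and 4, against 4.96 to 5.08 at D10. The count was 13 rises and 0 falls without the 3 libraries, with a median change of 0.13. Nop56, a core protein of small nucleolar particles, had 122, 125, 149 and 116 CPM at D11, against 59.6, 54.5, 56.1 and 54.9 CPM at D10, without overlap (log2 1.17, SE 0.09, adjusted p = 1.0e-05). Its partners Nop58 and Fbl rose by 0.93 (SE 0.10) and 0.48 (SE 0.13). Of growth factors and receptors, 33 were listed and 23 tested, of which 2 rose, 1 fell and 20 were not called. Without the 3 libraries 4 rose and 11 fell, where 22.4% of all rows rose and 22.2% fell. Kit, a receptor tyrosine kinase, rose by 1.63 (SE 0.25) and Fgfr2, also a growth factor receptor, by 0.51 (SE 0.15), while Insr, the insulin receptor, fell by 0.29. In the list of ATF4 and unfolded protein genes 3 of 31 rose (9.68%) and 2 fell (6.45%), near the 10.9% and 5.07% of all rows. Without the 3 libraries 13 rose and 9 fell. Mthfd2, a mitochondrial folate enzyme, rose by 2.05 (SE 0.58, adjusted p = 0.037) with 25.0, 45.6, 60.7 and 49.0 CPM at D11, against 42.5 CPM in D10 replicate 1 and 4.89 to 7.82 CPM in the other D10 libraries.

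With all 8 libraries the remaining lists gave few calls, where 10.9% of all rows rose and 5.07% fell. Of 35 matrix genes 3 fell, all laminins (Lama2, Lamc1 and Lama4, log2 -0.62 to -0.29), and 32 were not called, but without the 3 libraries 20 fell and 3 rose, beside 22.2% of all rows that fell. Cholesterol synthesis had 2 rises and 1 fall among 23 genes, immediate early genes 1 of each among 25, and the TGF-beta and YAP targets 1 rise among 21. None of 23 interferon genes was called in limma, with 5 at an unadjusted p under 0.05, 0 called by edgeR and 2 by DESeq2. Without the 3 libraries, 9 cholesterol genes rose and 4 fell, and 3 immediate early genes rose and 11 fell. Among the TGF-beta and YAP targets 7 rose and 3 fell, and 4 interferon genes rose and 6 fell. Rises then made up 22.4% of all rows and falls 22.2%. The rise shared by the immediate early and YAP lists was Cyr61, a matricellular protein, with 74.0, 61.4, 132 and 60.2 CPM at D11, against 28.4, 40.3, 44.2 and 44.1 CPM at D10 (log2 0.99, SE 0.24, adjusted p = 0.020), and 0.50 without the 3 libraries.

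Markers of the labelled cell type were high on both days. The 9 atrial muscle markers summed to between 65176 and 96733 CPM at D11, against 74402 to 119505 CPM at D10, with 1 fall (Myl7) and 8 not called. Of the 9, 8 fell and 0 rose without the 3 libraries (median log2 -0.24), where 22.2% of all rows fell. Of markers of other cells, 7 of 10 fibroblast genes were listed and summed to 48.4 to 139 CPM at D11, against 39.8 to 55.0 CPM at D10, and of the 5 tested limma called none, with 1 at an unadjusted p under 0.05 and 1 each called by edgeR and DESeq2. S100a4 made up most of this, with 117, 25.3, 118 and 29.5 CPM at D11, against 26.0 to 29.8 CPM at D10, while Col1a1 stayed between 1.76 and 5.55 CPM on both days (log2 -0.51, adjusted p = 0.23). Macrophage markers (2 of 6 listed) summed to 0.576 to 2.14 CPM at D11, against 0.709 to 1.26 CPM at D10, and Schwann cell and neuron markers (3 of 6) to 4.89 to 5.92 CPM, against 3.80 to 5.51 CPM. Endothelial markers (3 of 8) summed to 108 to 216 CPM at D11, against 80.3 to 303 CPM at D10, nearly all of it Kdr. Smooth muscle markers (8 of 8), which immature heart muscle also expresses, summed to 11459 to 17245 CPM, against 10883 to 16986 CPM, with Smtn higher (0.38, SE 0.08). Epicardial markers (3 of 6) summed to 31.5 to 58.4 CPM, against 37.4 to 50.7 CPM, with Upk3b higher (0.71, SE 0.16). Skeletal muscle markers (4 of 9) summed to 19.0 to 58.5 CPM, against 12.8 to 16.4 CPM, with the myosins Myh8 and Myh2 higher (1.46 and 1.23). Without the 3 libraries, 1 of the 5 tested fibroblast genes rose and 1 fell, 2 of 8 smooth muscle markers rose and 1 fell, both tested epicardial and both tested skeletal muscle markers rose, and the tested endothelial marker fell. No listed marker was at 0, and genes without reads in some library are not analysed here.

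The libraries that stood apart did so in recognisable RNAs, named here after their values were seen. D10 replicate 1 had 172 CPM of Ddit3, the stress factor CHOP, against 37.4 to 45.8 CPM in its companions, and 73.3 CPM of Cox6a2, a muscle subunit of cytochrome oxidase, against 4.10 to 8.00 CPM. Car9, a carbonic anhydrase, stood at 27.8 CPM there, against 2.09 to 2.69 CPM. D11 replicates 1 and 3 were high in Dusp6, a phosphatase induced by ERK, with 5.58, 0.991, 7.64 and 1.07 CPM over the 4 D11 libraries, against 0.748 to 1.08 CPM at D10. Etv4 followed the same order, with 8.91, 1.63, 10.6 and 1.76 CPM at D11, against 1.59 to 2.16 CPM at D10. None of these 5 genes was called between the days in limma. The part of these library differences in the results was not tested.

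**Figure D5:**
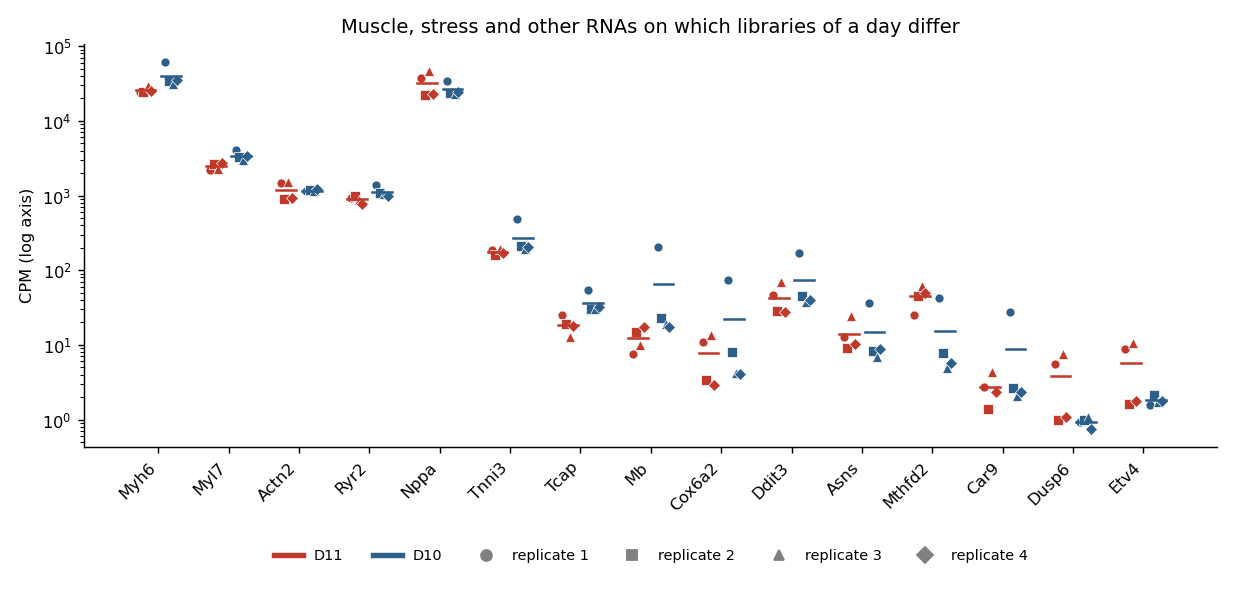
CPM on a log axis for muscle, stress and other RNAs in each library, D11 in red left of D10 in blue, with the marker shape giving the replicate and a line the mean of 4. D10 replicate 1 lies alone above its day for Mb, Cox6a2, Ddit3 and Car9, and D11 replicates 1 and 3 lie above replicates 2 and 4 for Dusp6 and Etv4.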

How the data were processed

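The deposited expression table is a signal in which the authors scaled whole reads to an effective library size; its columns sum to between 868992 and 1136457, so that the planned name CPM holds only in that sense. Within 0.1 read, 100% of values of up to 20 reads came out whole, and edgeR 4.0.16 on the recovered reads called 1834 rows and DESeq2 1.42.0 called 2520. The authors deposited TPM of the rat genes in a second table, per the file headers. Rnor_6.0 and edgeR 3.26.8 are named per the submitters' processing notes. For the aligner and for the counter the name is not given in the sources used here.

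limma 3.58.1 (R 4.3.3), with lmFit and a trended eBayes, was run on log2(CPM + 0.5) over the 8 libraries, with at least 1 CPM in at least 4 of them, Benjamini-Hochberg adjustment over all rows and a threshold of 0.05. The contrasts of steps used the 12 libraries of their 3 days. A gene's SE is limma's and covers 4 libraries a day. On simulated data for D11 against D10, over 11653 rows, the fit recovered 99.0% of genes changed by log2 1 and 100% of those changed by log2 2, with 4.33% false calls. For the step contrast with D10 and D9, 57% of genes changed by log2 1 were recovered. All simulated libraries had the same dispersion and none stood apart. Recovery in the real, uneven libraries may be lower, and an uncalled gene is not shown to be unchanged. The members and all lists were chosen with earlier results of these data known.

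Named were the construct rows, a fixed set of anchor genes, the 10 largest rises and falls without overlap between the days, in each list the called members with the largest rise and fall (up to 4 of each in cell cycle lists), and the 5 highest and lowest contrasts of steps. Other genes of the lists, among them Brca1, Cdt1, Plk1, Foxm1, Mdm2 and Nop58, were added for their role or after their values were seen. A few genes that this rule names are not reported here. The 18 rows whose symbol is missing or has become a date entered the test and are not named. Pairs of libraries within D11 and D10 were compared on their reads, and the closest pair differed by a mean chi-square of 4.78, so none was counted as a copy. All columns were matched to a day, leaving 0 unused. A D1 column with no exact match entered only the fit over all 36 libraries. Replicate numbers were not taken as pairs, since the deviations of same-numbered libraries correlated between -0.36 and 0.20. Promoters come from RefSeq (GRCr8), matched by symbol, and no coordinates of Rnor_6.0 were used. Symbols with several promoter entries were left out of the gene sets, but their entries stayed among all promoters.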

Additional observations from a re-analysis of the deposited data

Results flagged for a closer look

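The 101 named genes were each examined in a D11 and a D10 group. A library was singled out where its gap to the nearest of its day exceeded Dixon's critical share of the range of the 4 values. Chance gives such a gap in about 1 in 20 groups. Of the 19 cases, 15 were D10 replicate 1, as the highest library in 14 and the lowest in 1.

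In D10 replicate 1, muscle RNAs were high. Myh6 stood at 60795 CPM, against 31532 to 34810 CPM in the other D10 libraries, and Atp2a2 at 21825 CPM, against 17254 to 17838 CPM. Tnni3, the inhibitory troponin, stood at 479 CPM, against 195 to 209 CPM, Nppa at 34521 CPM, against 22629 to 24201 CPM, and Mb at 206 CPM, against 17.5 to 23.2 CPM. Tcap was at 54.2 CPM, against 29.9 to 32.0 CPM, and Dkk3 at 1351 CPM, against 1203 to 1227 CPM.

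The same library was also high in RNAs of other groups. Egln3 stood at 381 CPM, against 147 to 156 CPM, Mthfd2 at 42.5 CPM, against 4.89 to 7.82 CPM, and Lama2 at 31.0 CPM, against 19.5 to 21.3 CPM. Gnb3 was at 18.7 CPM, against 14.5 to 14.9 CPM, Kbtbd11 at 12.9 CPM, against 3.73 to 4.64 CPM, and Col1a1 at 5.55 CPM, against 3.74 to 3.93 CPM. E2f8 was at 0.53 CPM, against 0.361 to 0.389 CPM. Pfkfb3 was the RNA that was low there, at 54.9 CPM, against 90.6 to 95.2 CPM.

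The remaining cases were spread over 4 libraries. Cenpf was highest in D10 replicate 2, at 1.21 CPM, against 1.03 to 1.05 CPM, and Chaf1b in D10 replicate 4, at 4.52 CPM, against 2.67 to 2.82 CPM. At D11, Myh6 was highest in replicate 3, at 28973 CPM, against 24408 to 25005 CPM, and Kit was lowest in replicate 1, at 3.18 CPM, against 6.03 to 6.15 CPM.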

How the results depend on the processing

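For D11 against D10, the 1856 called rows became 3114 with all 36 libraries in the fit, 4708 with array weights and 5195 without the 3 libraries that stood apart (added after seeing the data), and 913 at an adjusted p under 0.01 and 472 with a 2-fold minimum. Leaving out 1 library at a time gave 1218 (without D10 replicate 2) to 2585 (without D10 replicate 1). The step contrast with D10 and D9 moved from 926 rows to 1398, 3631 and 2499 under all 36 libraries, array weights and without the 3 libraries, and to between 624 and 1102 with 1 library left out. The contrast with D12 moved from 167 rows to 98 in the TPM table, 320 with DESeq2, 678 with all 36 libraries, 4049 with array weights and 318 without the 3 libraries. It ranged from 73 to 225 with 1 library left out (73 and 76 without D11 replicates 2 and 4). With the replicate block the counts were 1276, 743 and 147, within 1.5 times of those without it. The cause was not tested for any of these. Other pseudocounts, filters and scalings kept all 3 counts within 1.5 times.

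Of 2383 values of named genes under the alternatives, 2263 kept direction and call, 85 lost the call and 25 gained it. Signs turned for genes that were not called. Actn2 was -0.01 and came to 0.043 (total of listed rows), 0.15 (quantile), 0.011 (TPM), 0.016 (edgeR) and 0.0071 (DESeq2), and leaving out 1 library gave -0.13 (without D11 replicate 3) to 0.12 (without D11 replicate 2), above 0 also without D10 replicate 4 (0.010) and D11 replicate 4 (0.10). Atp2a2 was 0 under quantile normalization and Nppa -0.051 without the 3 libraries. In the 8 libraries 1 read was worth 0.0222 to 0.0344 CPM, so that E2f7 and Orc1 rest on few reads at D10.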

Other observations

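The immediate early genes, which cells switch on within minutes of a stimulus, had a negative median change over the day before D11 and one near 0 at D11. Their median log2 change was -0.54 between D9 and D10, 0.02 between D10 and D11 and 0.74 between D11 and D12. The D12 libraries were split, with a median level on the log2 scale of 5.82 and 5.46 in replicates 3 and 4, and 3.77 and 3.96 in replicates 1 and 2, beside 3.81 to 4.08 in the D11 libraries. The change was higher in the D11 step than in the step before for 9 of 26 of them and lower for 1 (limma, adjusted p under 0.05), beside 5.51% and 2.36% of all rows. Cyr61 averaged 252 ± 7.90 CPM at D9 and 229 ± 189 CPM at D12 (SD, n = 4 each), and its contrast between the steps was 3.69 (adjusted p = 3.8e-05). The skeletal myosins Myh8 and Myh2 also had higher D11 steps, with contrasts of 2.95 and 2.16.

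Inha had 21.0, 24.1, 27.7 and 23.0 CPM at D11, against 54.6, 50.2, 46.6 and 52.4 CPM at D10, and averaged 18.6 CPM at D9 and 57.6 CPM at D12. All D11 libraries lay below all D10 libraries (log2 -1.08, SE 0.10, adjusted p = 4.1e-05 against D10).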
